A study of Mus musculus with 4 samples.

Results

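Adrenomedullin and its receptor genes were examined in mouse embryos that lack Cop1, which encodes an E3 ubiquitin ligase. The members were Adm, Calcrl, Ramp1, Ramp2 and Ramp3, taken as every probe set that the platform's annotation pairs with one of these symbols alone. This gave 5 genes with 10 probe sets, of 18193 genes and 45037 probe sets tested. Adm was picked for its difference between the 2 genotypes, so the differences of all 5 genes are described here without a test. Whole embryos of embryonic day 9.5 were used. The null group was a mixture of RNA from 6 Cop1-null embryos. The control group was a mixture of RNA from 6 embryos that were either +/+ or +/-, although the array titles call them wild-type, so the controls could carry 1 null allele. The sources used here name neither the strain nor the kind of null allele. Each mixture was divided into 2 portions, and every portion was hybridised to 1 array. SD values and limma's p-values therefore measure only the spread between portions of 1 pool, and the embryos themselves have no replicate check.

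Adrenomedullin is a secreted peptide that widens blood vessels and is needed for the growth of blood and lymphatic vessels in the embryo. It acts through the calcitonin receptor-like receptor, encoded by Calcrl, a receptor coupled to cyclic AMP production. That receptor works only beside a receptor activity-modifying protein. RAMP1 turns it into a receptor for calcitonin gene-related peptide, whereas RAMP2 and RAMP3 turn it into adrenomedullin receptors. Calcrl and Ramp2 are known for their expression in endothelium, and the Adm gene is a known target of the hypoxia-inducible factors (HIF).

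The arrays had similar distributions, with medians from 6.03 to 6.10 (log2). Pearson's r across probe sets, which are not independent, was 0.998 between portions of either pool and 0.98 to 0.982 between genotypes. Cop1 itself has 1 probe set, with 11.35 and 11.26 in control portions against 9.67 and 9.77 in null portions, so it fell by 1.58 log2 units (limma, adjusted p = 0.000728). Where that probe set lies relative to the change in the null allele is not known here. Genes that mark an embryo with a beating heart and primitive blood were bright, among them Myh7, the beta myosin heavy chain, at 9.84 and 9.85 in control portions, and the embryonic globin gene Hbb-bh1, at 14.37 and 14.39.

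Adm, the gene of the ligand, was far higher in the null pool with both of its probe sets. With probe set 1447839_x_at the control portions read 7.76 and 7.91 and the null portions 11.45 and 11.31. The pools stood apart by at least 3.40 log2 units, while the portions of a pool lay within 0.15. The control mean was 7.84 ± 0.11 and the null mean 11.38 ± 0.10 (log2, SD, n = 2 portions), a difference of 3.55 (SE 0.10) or 11.7-fold. Probe set 1416077_at read 7.66 and 7.73 in the control portions and 11.28 and 11.25 in the null portions. Its difference was 3.57 (SE 0.04), or 11.9-fold, so both probe sets gave nearly the same size. Of 18193 genes, each taken as its brightest probe set, Adm had the 2nd highest difference in favour of the null pool. Dimmer probe sets of other genes lay higher, such as Pdk1 at 3.93 and Pfkp at 3.59. As Adm was picked for its difference, nothing is read from this rank. The Adm difference lay between 3.32 and 3.63 under every scaling, probe set rule and omission of an array that was tried.

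The promoters of Adm and Ramp3 are printed because, among the members searched, they held the most HIF core motifs. The core was searched as ACGTG or GCGTG on both strands in RefSeq windows from 250 bases before to 50 bases after the start of a gene (GRCm38.p6), and 4 of the 5 members had a window. Below, the part before the annotated gene is printed 5′ to 3′ on the strand of the gene, with the cores in capitals. CACGC is GCGTG read on the opposite strand. The Adm stretch is chr7:110627407-110627656 on the plus strand and the Ramp3 stretch chr11:6658283-6658505 on the plus strand.
Adm: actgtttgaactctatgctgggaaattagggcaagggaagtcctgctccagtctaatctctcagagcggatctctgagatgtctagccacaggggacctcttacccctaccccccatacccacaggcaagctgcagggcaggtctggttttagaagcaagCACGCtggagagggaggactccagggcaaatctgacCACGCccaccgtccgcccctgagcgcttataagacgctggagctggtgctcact
Ramp3: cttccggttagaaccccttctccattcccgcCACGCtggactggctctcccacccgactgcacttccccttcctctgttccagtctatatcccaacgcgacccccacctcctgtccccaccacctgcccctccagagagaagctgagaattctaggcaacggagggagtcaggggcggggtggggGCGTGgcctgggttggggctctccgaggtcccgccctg

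The Adm window held 2 GCGTG cores, which end 85 and 49 bases before the gene, and 0 ACGTG cores. The Ramp3 window held 2 GCGTG cores as well, the Calcrl window 1 and the Ramp1 window 0. Of 32851 windows of the same length, 43.8% held at least 1 core of either form and 20.6% held 2 or more, so such cores are common. The Adm window also held 1 TATAA, the TATA box letters on the gene's own strand, as did 17.5% of all windows, and none of the other members' windows held it. The AP-1 motif TGANTCA was in 0 of the 4 members' windows and in 7.81% of all windows. The cyclic AMP response element TGACGTCA was likewise in 0 of the 4 and in 1.79% of all. The ETS motif CCGGAAG was in the Ramp3 window only among the 4, and in 8.86% of all. These matches describe letters in the windows and not binding, and sequence outside the windows was not searched. The part of any of these motifs in the members' values was not tested. Adm itself spans bases 110627657 to 110629820 of chromosome 7.

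**Figure D1:**
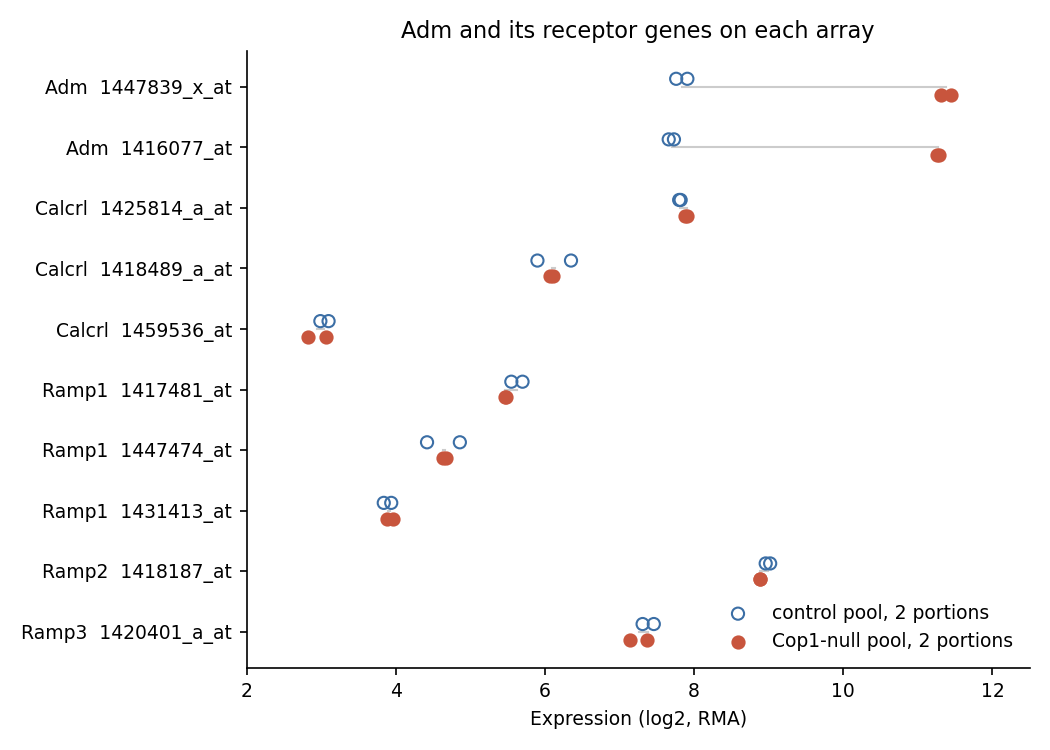
Expression (log2, RMA) of the 10 probe sets on each of the 4 arrays; open circles are the 2 control portions, filled circles the 2 Cop1-null portions, and grey lines join the pool means. Both Adm probe sets lie above 11 in the null pool and under 8 in the control pool, while the circles of the receptor probe sets lie close together.

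Calcrl, the gene of the receptor, had almost the same level in both pools. Its brightest probe set, 1425814_a_at, gave 7.80 and 7.82 for the controls against 7.88 and 7.91 for the null portions. The pools did not overlap, but the gap between them was 0.06 and the difference 0.09 (SE 0.02), or 1.06-fold. Probe set 1418489_a_at read 5.90 and 6.35 in the control portions and 6.07 and 6.11 in the null portions, so the null values lay between those of the controls. Probe set 1459536_at read 3.10 and 2.99 in the control portions and 3.06 and 2.82 in the null portions, near the low end of all probe sets (percentile 1.77 by mean), and the pools overlapped. The latter 2 probe sets gave differences of -0.04 (SE 0.23) and -0.10 (SE 0.13). The sign for Calcrl is not settled, as it turned to -0.14 with the arrays centred on the probe sets of the poly-A spikes, control RNAs foreign to the mouse, and to -0.02 with the mean of its probe sets. The medians of those spikes were 7.40 and 7.63 in control portions and 7.67 and 7.83 in null portions, so the portions of 1 pool lay apart by nearly as much as the pools. Calcrl spans bases 84330626 to 84425405 of chromosome 2 (GRCm38.p6).

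Ramp2, whose product makes the main vascular adrenomedullin receptor with CALCRL, has 1 probe set. The control portions read 9.02 and 8.96, and both null portions read 8.88. The pools did not overlap, and the null pool was lower by a small step. The means were 8.99 ± 0.04 and 8.88 ± 0.00 (log2, SD, n = 2 portions), a difference of -0.11 (SE 0.03), or 1.08-fold. Ramp2 spans bases 101246334 to 101248250 of chromosome 11.

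Ramp3, whose product forms the second adrenomedullin receptor, also has 1 probe set. It read 7.31 and 7.46 in the control portions and 7.14 and 7.37 in the null portions. The pools overlapped, and the difference of -0.13 (SE 0.13) was no larger than the gap of 0.23 between the null portions. It was -0.01 without null replicate 1, -0.24 without null replicate 2, -0.20 without control replicate 1 and -0.06 without control replicate 2. Ramp3 lies on the same chromosome as Ramp2, at bases 6658506 to 6677478.

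Ramp1, whose product directs the receptor towards calcitonin gene-related peptide, has 3 probe sets. Probe set 1417481_at gave 5.70 and 5.55 for the controls against 5.48 and 5.46 for the null portions, without overlap and with a difference of -0.15 (SE 0.08). Probe set 1447474_at read 4.86 and 4.42 in the control portions and 4.68 and 4.64 in the null portions, and the null values lay between the controls. Probe set 1431413_at read 3.94 and 3.84 against 3.96 and 3.88, again with overlap. Of the 8 receptor probe sets, 3 had pools without overlap, where 65.3% of all 45037 probe sets did. The differences of these 2 probe sets were 0.02 (SE 0.22) and 0.03 (SE 0.06), so the probe sets of Ramp1 did not share a sign. The difference of 1417481_at was -0.07 without control replicate 1 and -0.23 without control replicate 2. Ramp1 spans bases 91179822 to 91225196 of chromosome 1.

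The 4 receptor genes together lay between -0.15 and 0.09, with a median of -0.12, beside a median of -0.02 over all genes. A gene's median absolute difference over all genes was 0.18, and 44.1% of genes differed by less than the widest of the 4 receptor genes. Of the 5 members, 1 differed at least 1.5-fold, as did 11.8% of all genes. Of the 5, 4 had pools that did not overlap, as did 68.2% of all genes. Because the members were chosen from this contrast, nothing is read from these shares. In whole embryos, fewer cells of a type and less RNA per cell cannot be told apart. With poly-A spike centring, which moved the median of all genes to -0.26, the differences were -0.38 for Ramp1, -0.34 for Ramp2 and -0.36 for Ramp3, and Adm kept 3.32.

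**Figure D2:**
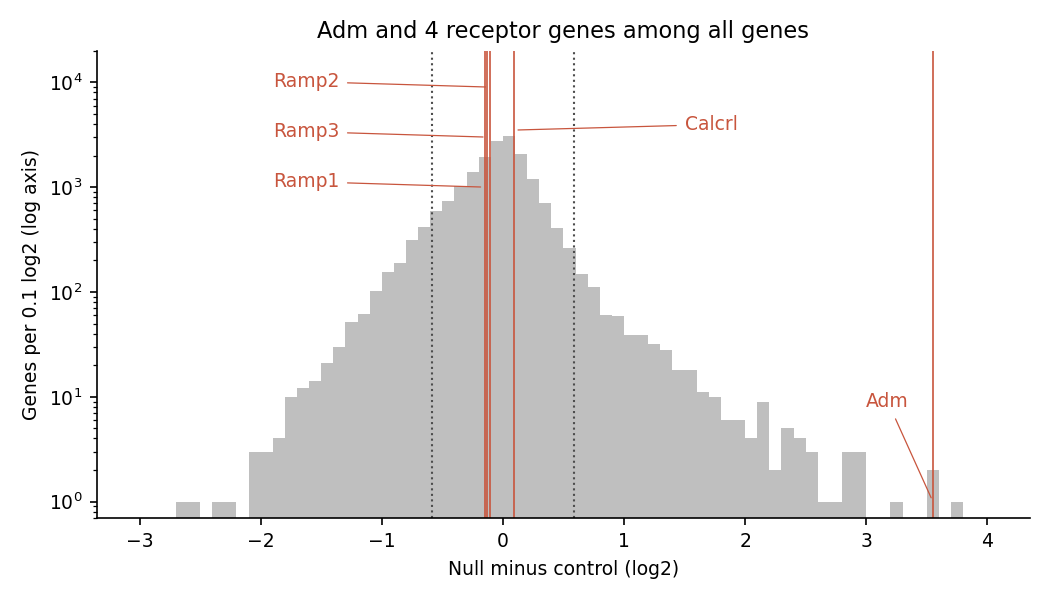
Histogram of the differences between the null and the control pool (log2) for 18193 genes, with a log axis for the number of genes; red lines mark Adm and the 4 receptor genes and dotted lines the 1.5-fold limits. Adm, at 3.55, stands in the far right tail, and the receptor genes, between -0.15 and 0.09, stand in the middle.

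The other peptides of the calcitonin family were then read beside Adm. Of 4 measured members of that list, 1 rose and 0 fell (a fold of 1.5 or more with limma's adjusted p below 0.05), where 3.58% of all genes rose and 8.06% fell. Adm2, which encodes adrenomedullin 2, another ligand of these receptors, read 6.27 and 5.83 in the control portions and 6.87 and 7.13 in the null portions. All null values lay above the controls, and the difference was 0.95 (SE 0.17, limma, adjusted p = 0.015). This call was lost when control replicate 2 (0.73, adjusted p = 0.0524), null replicate 1 (1.08, with an adjusted p of 0.0558) or null replicate 2 (0.83, with an adjusted p of 0.0935) was left out. Calcb, a gene of calcitonin gene-related peptide, read 4.21 and 3.98 against 4.09 and 4.16, and Calcr, the calcitonin receptor gene, 4.12 and 4.32 against 4.06 and 4.33. Both overlapped between the pools.

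Genes that amidate, bind or clear the peptide gave 0 rises and 0 falls among 4 measured, with a median of 0.26. Pam encodes the enzyme that amidates adrenomedullin, a step needed for its activity. It read 7.94 and 8.05 in the control portions and 8.52 and 8.50 in the null portions, a difference of 0.51 that stayed under the fold limit (limma, adjusted p = 0.00641). Ackr3 encodes a scavenger receptor that takes up adrenomedullin. It read 9.85 and 9.91 against 10.21 and 10.20, a difference of 0.33 (adjusted p = 0.0181). Mme, the gene of the peptidase neprilysin, had a difference of -0.28, and Mmp2, a matrix metalloproteinase gene, one of 0.19.

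Genes of receptor coupling and trafficking gave 0 rises and 1 fall among 6 measured, with differences from -0.81 to -0.10 and a median of -0.42. Slc9a3r1 encodes a PDZ scaffold known to bind the tail of RAMP3. It fell from 9.43 and 9.52 to 8.69 and 8.65, a difference of -0.81 (SE 0.07, limma, adjusted p = 0.00192), and its other 2 probe sets fell too. Crcp, the receptor component protein that helps CALCRL signal, read 8.98 on both control arrays and 8.56 on both null arrays, a difference of -0.42 without a call. Gnas, the gene of the stimulatory G protein subunit, read 13.40 in both control portions and 13.32 and 13.27 in the null portions with its brightest probe set, while 2 of its other 4 probe sets rose and the 4 ranged from -0.26 to 1.94. The list gave 1 rise with the probe set of largest spread and 4 falls with poly-A spike centring.

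In the cyclic AMP pathway, 1 of 32 measured genes rose and 3 fell, with a median of -0.07. Pde4b, a phosphodiesterase that breaks down cyclic AMP, rose from 6.98 and 6.96 to 9.13 and 9.12. The pools were far apart beside the gap of 0.03 between control portions, the difference was 2.16 (SE 0.06, limma, adjusted p = 0.000549), and 2 of its other 5 probe sets rose as well. Prkaca, a catalytic subunit of protein kinase A, fell by 0.79 log2 units (10.22 and 10.33 against 9.57 and 9.38), as did its other probe set. Pde7b, another phosphodiesterase gene, differed by -0.69, but its other 2 probe sets were positive and not called (0.14 and 0.15), and the mean of all of them, -0.13, had no call (adjusted p = 0.167). Adcy1, an adenylyl cyclase gene, differed by -0.67 (adjusted p = 0.0326 in limma) but its adjusted p rose to 0.154 when control replicate 1 was left out, to 0.106 for control replicate 2 and to 0.07 for null replicate 1. It also missed the threshold with a replicate block (adjusted p = 0.0663) and with the mean of its probe sets (-0.32, where the adjusted p was 0.139). The list gave 2 rises without control replicate 2, 1 fall with the mean of a gene's probe sets, 5 falls with the probe set of largest spread and 6 with poly-A spike centring.

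Genes that cyclic AMP is known to induce gave 1 rise and 1 fall among 9, with a median of 0.07. The orphan nuclear receptor gene Nr4a1 rose from 7.23 and 7.35 to 8.05 and 8.18, a difference of 0.83 (limma, adjusted p = 0.00286). Its relative Nr4a2 fell from 7.26 and 7.19 to 6.34 and 6.58, but its other 5 probe sets lay between -0.05 and 0.02, and the mean of all of them, -0.14, had no call (adjusted p = 0.117), which left 0 falls. Without control replicate 2 there were 2 rises. Among other receptors known to bind RAMPs, 0 rose and 1 fell of 14, with a median of -0.01. The fall was that of Adcyap1r1, the gene of the receptor for the neuropeptide PACAP, by 0.93 log2 units (adjusted p = 0.00128 in limma), but its other 2 probe sets were positive and not called (0.11 and 0.43). The mean of all of them, -0.13, had no call (adjusted p = 0.184), which left 0 falls in the list, while poly-A spike centring gave 2.

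Other vasoactive peptide systems gave 4 rises and 1 fall among 25 measured genes, with a median of 0.00. The natriuretic peptide genes Nppb and Nppa rose by 1.68 and 1.49 log2 units, Nppb from 7.72 on both control arrays to 9.38 and 9.42. Edn1, the gene of the vasoconstrictor endothelin 1, rose from 6.86 and 6.70 to 7.43 and 7.47 (0.67, limma, adjusted p = 0.00442), and with poly-A spike centring its difference of 0.44 missed the limits. Agtr2, an angiotensin receptor gene, fell from 4.57 and 4.60 to 3.30 and 3.22, a difference of -1.32. The list gave 2 falls without null replicate 2, 0 falls without the dimmest 40% of probe sets, and 2 rises and 4 falls with poly-A spike centring.

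Adm stood beside other genes of the response to low oxygen. Of 31 measured members of a list of hypoxia and HIF target genes without Adm, 29 rose and 0 fell. Over all genes 3.58% rose and 8.06% fell. The list's median was 1.91, against -0.02 over all genes. Rises in the list numbered 24 with poly-A spike centring, 27 with median centring and 28 with another quantile normalization. As the list was chosen with earlier results of these data known, its count is a description only. The cause of the rises was not tested. Ldha, at 0.45, and Pfkfb4, at -0.27, were the 2 without a call. The 5 genes whose values over the 4 arrays, each taken minus the gene's own mean, lay nearest to those of Adm were Stc2, Gdap10, Taf15, 2610528A11Rik and Pfkp. Their Euclidean distances over 4 arrays were 0.14, 0.43, 0.43, 0.58 and 0.63 log2 units. Stc2, the gene of the secreted glycoprotein stanniocalcin 2, read 7.04 in both control portions and 10.58 and 10.53 in the null portions, and its other 2 probe sets differed by 1.38 and 2.24. As the arrays hold only 2 pools, likeness here is mostly a similar size of difference. HIF cores as searched above were in the windows of 26 of 27 listed genes that had a window (96.3%). The share was 59.3% of 14452 measured genes with a window, without matching for base composition. As the list holds known HIF targets, a high share was likely in advance, and nothing is read from it.

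**Figure D3:**
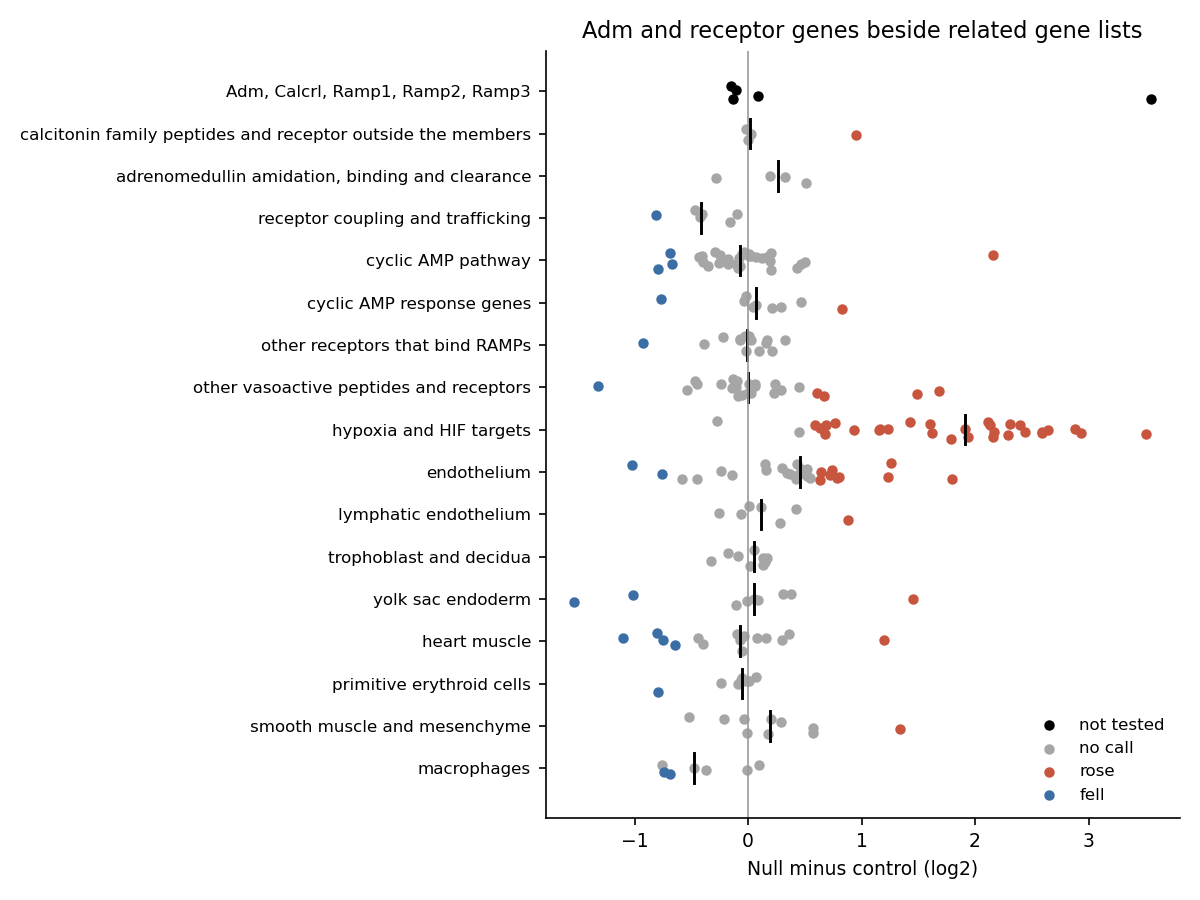
Differences between the null and the control pool (log2), 1 point per gene, for Adm and the receptor genes (black, not tested) and 16 related gene lists; red points rose, blue points fell and grey points had no call, and the black bar is the median of a list. Adm, at 3.55, lies beside Stc2, the highest gene of the hypoxia list at 3.51, while the 4 receptor genes lie near 0.

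Calcrl and Ramp2 were also set beside the vessel genes with which they are known to be expressed. Of 28 endothelial genes, 9 rose and 2 fell, with a median difference of 0.45, where Calcrl had a difference of 0.09 and Ramp2 one of -0.11. Flt1, a VEGF receptor gene, rose by 1.80, Acvrl1, a receptor of the TGF-beta family, by 1.26 and the transcription factor gene Sox17 by 1.23, whereas Gja4, a connexin gene of arteries, fell by 1.02. With poly-A spike centring 3 rose and 4 fell. The summed level of the endothelial genes (linear scale) was 8874 and 8923 in the control portions and 11232 and 11378 in the null portions, and its part in the values of Calcrl and Ramp2 was not tested. Of 7 lymphatic genes 1 rose, that of the growth factor Vegfc by 0.88. The lymphatic regulator Prox1 differed by -0.06 without a call, and its other 2 probe sets, also not called, by -0.40 and -0.35.

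Markers of other cells that the samples could hold were read as well. Adm is abundant in trophoblast, and of 9 measured trophoblast and decidua genes 0 rose and 0 fell, with differences from -0.33 (Pla2g4d) to 0.17 and -0.18 for Plac1. The summed level of these genes was 254 and 255 in the control portions and 242 and 243 in the null portions. Prl7a2, Psg17, Tpbpa, Prl8a2 and Ctsq lay near the low end of all probe sets (percentiles 0.939 to 11.2 by mean). A change in such dim genes could be missed. Plac1, at 6.95 and 6.89 in the control portions, was the brightest and weighs most in the sums. The list's Prl3d1, Prl3b1 and Prl2c2 were not analysed here. Yolk sac endoderm genes gave 1 rise and 2 falls among 9, with a median of 0.05, 5 positive differences and 4 negative ones. Their summed levels were 4649 and 4790 in the control portions and 2619 and 2588 in the null portions. Afp, at 11.82 and 11.86 in the control portions, was by far the brightest, so these sums mostly follow Afp and not the list as a whole. Ttr fell by 1.53 and Afp by 1.01, and Cubn rose by 1.45 but lost its call when either null portion was left out (adjusted p of 0.081 and 0.0802). The part of the yolk sac genes in the value of Adm was not tested.

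Heart muscle genes gave 1 rise, Myh7 (1.20), and 4 falls among 15, led by Pln (-1.10), Myl2 (-0.80) and Tnni1 (-0.75), and their summed level was 16364 and 16300 against 16072 and 16081. Primitive erythroid genes gave 0 rises and 1 fall among 9, that of Klf1 (-0.79), with summed levels of 69450 and 69599 against 67389 and 66579. These sums mostly follow Hba-x, Hbb-bh1 and Hbb-y, at the top of all probe sets (percentile 100 by mean). Whether those probe sets were near the ceiling of the array was not tested. Smooth muscle and mesenchyme genes gave 1 rise among 10, that of Tagln (1.34), with summed levels of 16341 and 15975 against 19720 and 19554. The count was 3 without control replicate 1 or null replicate 2, with another quantile normalization and with the probe set of largest spread, and poly-A spike centring added 1 fall. Macrophage genes gave 2 falls among 7, Cd68 (-0.74) and Lyz2 (-0.69), with summed levels of 613 and 686 against 469 and 496, and 5 falls with poly-A spike centring. The part of these cells in the members' values was not tested.

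The 2 nearest measured genes on each side of each member were read to see how the chromosomal surroundings compared. Their distances ran from 4.08 to 506 kb, so some lay far from the member. Of 20 such neighbours 3 rose, 2 fell and 15 had no call, where 3.58% of all genes rose and 8.06% fell. With so few neighbours, no difference from all genes is read from these counts. Beside Adm, at a distance of 12.7 kb, lies Sbf2, which encodes a myotubularin-related protein. Sbf2 read 9.48 and 9.40 in the control portions and 10.20 and 10.18 in the null portions, and rose by 0.74 (SE 0.07, limma, adjusted p = 0.00217). Its dimmer probe sets 1443160_at and 1457689_at, singled out after their values were seen, both differed by 2.69, the latter reading 3.95 and 4.26 against 6.80 and 6.81. The probe sets of Sbf2 thus differed widely in size. Swap70, on the same side, read 8.50 and 8.51 against 9.08 and 9.14 (0.60, adjusted p = 0.00332 in limma), and lay under the fold limit without null replicate 2 (0.57), with median centring (0.54) and with poly-A spike centring (0.37). With the latter Sbf2, at 0.51, was also under the limit. On the other side, 138 kb from Adm, Ampd3, an AMP deaminase gene, fell from 5.87 and 5.90 to 4.69 and 4.77, and Rnf141 overlapped between the pools at 9.05 and 9.11 against 9.17 and 9.10.

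Beside Calcrl, the gene Tfpi, 7.45 kb away, rose. Tfpi encodes tissue factor pathway inhibitor, an anticoagulant made by endothelium. It read 8.68 and 8.77 in control portions against 9.80 and 9.84 in null portions, a difference of 1.10 (SE 0.07, limma, adjusted p = 0.00107), and its other 3 probe sets rose as well. Of the 12 neighbours of the 3 Ramp genes, Adcy1, beyond Ramp3, was the only call with a gene's brightest probe set. Ezh1, 19.9 kb from Ramp2, differed by 0.19 with that probe set and had no call. Yet 2 of its other 3 probe sets rose, and the 3 ranged from 0.49 to 0.99.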

How the data were processed

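RNA of whole mouse embryos was measured on 4 Affymetrix arrays, 2 portions of 1 pool for each genotype. The deposited values are log2 expression values made by the authors with RMA (affy package), as the submitters' processing notes state. No version is named in the sources used here. RMA equalises the arrays' distributions, so a change in total RNA per embryo leaves no trace. The values were used as deposited. Of 45101 probe sets, 64 controls were set aside. Of the remaining 45037, the platform's annotation table gives 1 gene to 34945, several genes to 932 (left unnamed), and does not list 9160. A gene is its probe set of highest mean, which gave 18193 genes. The members and lists were chosen with earlier results of these data known, so the members' differences carry no test. The test for other genes was limma 3.58.1 under R 4.3.3 (lmFit and eBayes, genotype as the only term). Adjustment followed Benjamini and Hochberg over the 45037 probe sets, with a call at an adjusted p under 0.05 and at least 1.5-fold. Named under a written rule were all member probe sets, up to 4 called genes of each list with the largest difference (or 2 where none was called), the 5 genes nearest Adm in pattern, and 2 neighbours on each side of each member. Other genes were chosen after their values were seen. On simulated data for this comparison (45037 probe sets), 44% of probe sets changed 1.5-fold and 100% of those changed 2-fold were called, with 5 false calls. A true 1.5-fold change sits on the fold limit, so many of its estimates fall under it whatever the spread. The simulated spread was that between portions of 1 pool, so false calls between embryos were not covered. Alternatives were another quantile normalization, centring, each array left out, other rules for a gene's probe set, a filter, a mean trend and a replicate block. Arrays have no read depth, and the number of arrays limits the precision. Promoter windows come from RefSeq (GRCm38.p6).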

Additional observations from a re-analysis of the deposited data

How the results depend on the processing

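Arrays give no read depth, and 2 portions of 1 pool per genotype limit the precision to that of the array step. Adm kept its sign throughout. Its difference was 3.47 to 3.63 when an array was left out. The largest shift, to 3.32, came with poly-A spike centring and was wider than the SD of 0.10 between portions. With an array left out, Calcrl ranged from 0.07 to 0.10, Ramp1 from -0.23 to -0.07, Ramp2 from -0.14 to -0.08 and Ramp3 from -0.24 to -0.01. Calcrl read 0.14 with another quantile normalization, 0.03 with median centring, -0.14 with poly-A spike centring, -0.02 with the mean of its probe sets and -0.04 with its probe set of largest spread. Ramp1 read -0.38 with poly-A spike centring, -0.03 with the mean of its probe sets and 0.02 with that of largest spread. Ramp2 read -0.05 with another quantile normalization, -0.34 with poly-A spike centring and -0.17 with median centring. Ramp3 read -0.36 with poly-A spike centring. Over all genes, 652 rose and 1467 fell (30.8% rises). With poly-A spike centring 352 rose and 3215 fell (9.87% rises), and 36 instead of 18 genes of the lists fell. Taking the probe set of largest spread gave 1490 rises (41.5% of calls), as this rule favours changed probe sets. The array labels share replicate numbers, but nothing says that they mark a shared batch, and the deviations of same-numbered portions correlated at 0.06. A replicate block gave 647 rises and 1455 falls and a difference of 3.55 for Adm, and of the other results named here it ended the call of Adcy1 alone. A list count was taken as moved when it changed by more than 1.5-fold, or to or from 0, so smaller shifts are not included below. Of 74 results on single genes and list counts outside the members, poly-A spike centring moved 9 counts and ended 3 calls. The mean of a gene's probe sets moved 3 counts and ended 5 calls (Adcy1, Adcyap1r1, Nr4a2, Pde7b and Swap70). Leaving out an array moved 1 to 4 counts and ended 1 to 3 calls. The probe set of largest spread moved 4 counts, another quantile normalization and the filter 1 each, and median centring ended the call of Swap70, while all 74 held with a mean trend. Causes of these shifts were not tested.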
